A study of Mus musculus with 39 samples.

Results

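The miR-15/16 seed family with its X-linked relatives miR-322 and miR-503 was followed in mouse embryonic stem cells (ESCs) during endoderm differentiation. Its 7 members were chosen by name (mmu-miR-15a, mmu-miR-15b, mmu-miR-16, mmu-miR-195, mmu-miR-497, mmu-miR-322 and mmu-miR-503) out of 650 miRNAs on an Agilent 1-colour array, and the 7 rows were found on all 39 arrays. The study asked how Activin A and Wnt3a, growth factors that drive ESCs toward definitive endoderm, change miRNA expression. Each of 13 groups had 3 arrays: undifferentiated ESCs, and cells kept for 1, 3 or 5 days as control, with 50 ng/ml Wnt3a, with 100 ng/ml Activin A or with both. All cells came from 1 mouse ESC line, so differences between lines were not measured. The line was maintained on mitomycin C-treated fibroblast feeders with LIF, and feeders were removed by a short passage on gelatin before differentiation. Growth factors were given in RPMI medium with B27 and sodium butyrate, which all differentiating groups shared, and the control received that medium without growth factors. The sources do not say whether the 3 arrays of a group came from separate cultures, so the p-values measure the spread between these samples, which may be technical.

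MiRNAs of this family pair with their targets through the seed, the bases near the 5′ end of the mature strand. miR-15 and miR-16 are known to restrain the cell cycle and survival, with cyclins and Bcl2 among their targets, and in the early embryo they repress the Activin and Nodal receptor Acvr2a. miR-195 and miR-497 are tied to cell cycle exit, and miR-322 and miR-503 are induced in differentiating cells, where they repress Cdc25a.

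The mature sequences, from RefSeq (build GRCm38.p6), are shown because they define the family and show how far its members differ outside the seed. Capitals mark bases 2 to 8, the seed, in the order 5′ to 3′.

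miR-15a: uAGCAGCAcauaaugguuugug
miR-15b: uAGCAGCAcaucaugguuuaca
miR-16: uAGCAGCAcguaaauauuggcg
miR-195: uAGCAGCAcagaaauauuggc
miR-497: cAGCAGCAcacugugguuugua
miR-322: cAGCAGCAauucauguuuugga
miR-503: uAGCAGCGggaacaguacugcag

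The letters AGCAGCA at bases 2 to 8 were held by 10 of 1679 mature mouse miRNAs in RefSeq, 6 of them members here. miR-503 differed in the last seed base (A8G relative to miR-322) and was the only miRNA with AGCAGCG at this place. Outside the seed miR-16 and miR-195 were the closest pair, with 2 differences over 21 bases (G10A and U11G). miR-15a and miR-15b differed at 4 of 22 bases (A12C, G20A, U21C and G22A), and miR-322 and miR-503 at 11 of 22. Cross-hybridization between members this close was not tested.

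The members lie in 4 clusters. miR-15a (chr14:61632075-61632096) and 1 copy of miR-16 (chr14:61631936-61631957) lie on the minus strand within the lncRNA gene Dleu2, with 117 bases between the mature strands. miR-15b (chr3:69009775-69009796) and the other copy of miR-16 (chr3:69009918-69009939) lie on the plus strand within Smc4, a condensin gene, 121 bases apart. Since both copies give the same mature strand, the array signal of miR-16 cannot be divided between them. miR-497 (chr11:70234730-70234751) and miR-195 (chr11:70235062-70235082) lie 310 bases apart on the plus strand, where the table lists no overlapping gene. miR-322 (chrX:53054306-53054327) and miR-503 (chrX:53054027-53054049) lie 256 bases apart on the minus strand within the lncRNA gene C430049B03Rik.

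Levels are log2 of the quantile normalized total signal, raised to a floor of 2, so that a miRNA not detected sits at 1. At least 183 miRNAs were detected on every array (median 296) and 0 spots were saturated. The lowest detected signal was 12.3 to 34.4 on arrays of ESCs and day 1 and 2 to 11.3 on those of days 3 and 5, so a low level was harder to detect early. Equal values and an SD of 0 occur because quantile normalization gives equal ranks equal values. Array 1 of Wnt3a at day 5 stood apart. Over the miRNAs detected everywhere, its root mean square distance from the other arrays of its group was 1.14. Outside that group the distance was at most 0.348. Where a reported day 5 call on a member or a pair changes without that array, the values or the counts of members from both fits are given. In the authors' processed matrix 18 of 39 columns matched another array's scanner output: those named for Activin A held the arrays with both factors on the same day, and the reverse. The scanner labels were used here. Which labelling is right was not tested, and results that separate these 2 groups depend on that choice. The average effect of Activin A over both Wnt3a states is the same under either labelling, since both of the exchanged groups received Activin A. RNA came from whole cultures, so fewer cells of a type and less RNA per cell cannot be told apart.

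Over the course without growth factors the 4 clusters moved differently. miR-322 and miR-503 rose, miR-497 and miR-195 were highest at day 1 and lower later, and miR-16 and miR-15b were highest at day 5. In the control and in each treatment no slide held arrays of more than 1 day. Day and slide therefore cannot be told apart within a treatment. The control arrays of day 5 were also scanned on another day than those of days 1 and 3.

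miR-322 was detected on 1 of 3 ESC arrays (4.37) and on 2 of 3 control arrays at day 1 (5.37 and 5.40). It then read 6.995, 6.932 and 6.995 at day 3 and 8.01, 8.07 and 7.98 at day 5. The day 3 arrays were above all earlier ones and the day 5 arrays above those of day 3. From day 1 to day 3 the fitted difference was 3.05 ± 1.16 (SE, n = 3; adjusted p = 0.0234, limma), which sets the undetected array at the floor; against the mean of the 2 arrays that detected it the difference was 1.59. From day 3 to day 5 the difference was 1.05 ± 1.16 (adjusted p = 0.568), although the arrays of both days did not overlap, since the fit over all groups includes the early arrays that did not detect it.

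miR-503 was not detected in ESCs or in any group at day 1. In the control it read 3.95, 4.51 and 3.71 at day 3 and 5.24, 5.24 and 5.21 at day 5. It was first detected at day 3, and rose again to day 5. From day 1 to day 3 the test passed (adjusted p = 5.62e-17), but its mean day 3 level was below the mean of the lowest levels that the 3 day 1 control arrays detected, so no fold is given. From day 3 to day 5 it rose by 1.17 ± 0.15 (adjusted p = 1.30e-07).

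miR-497 moved the opposite way. It read 5.59, 5.46 and 5.81 in ESCs and 6.28, 6.21 and 6.30 in the day 1 control, a rise of 0.64 ± 0.12 (adjusted p = 0.000103). It then read 5.00, 4.70 and 4.93 at day 3 and 3.27, 3.42 and 2.77 at day 5. The groups did not overlap at any step. miR-497 fell by 1.38 ± 0.12 from day 1 to day 3 (adjusted p = 4.88e-11) and by 1.73 ± 0.12 from day 3 to day 5 (adjusted p = 1.27e-12).

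miR-195, its cluster partner, read 5.30, 5.58 and 5.19 in ESCs, 6.66, 6.78 and 6.76 in the day 1 control, 5.46, 5.63 and 5.59 at day 3 and 4.64, 4.81 and 4.77 at day 5. It too was highest at day 1. The rise from ESCs was 1.38 ± 0.35 (adjusted p = 0.00233) and miR-195 fell by 1.18 ± 0.35 to day 3 (adjusted p = 0.00424), whereas the day 5 step of -0.82 ± 0.35 did not pass (adjusted p = 0.0602). With the slide as a fixed block the step from day 1 to day 3 was -1.02 and no longer passed (adjusted p = 0.294).

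Fibroblast and mesenchymal miRNAs, which mark feeder cells, also fell between day 1 and day 3: of 8 on the list, 6 were lower and 0 higher, and their summed level went from 12.05 to 12.07 in the day 1 control to 9.84 to 10.20 at day 3, where 5 of the 8 were not detected on any of the 3 arrays. Their part in the fall of miR-195 and miR-497 was not tested. From day 3 to day 5, when miR-497 fell further, 2 of the 8 were higher and 0 lower.

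Of the 7 members, 4 passed the test from ESC to day 1 (miR-15b, miR-16, miR-195 and miR-497, all higher), against 30.3% of the 373 miRNAs tested. From day 1 to day 3 it was 4 of 7 against 63.5%, and from day 3 to day 5 4 of 7 against 41.6%.

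miR-16 rose from 9.19 ± 0.05 (SD, n = 3) in ESCs to 9.82 ± 0.30 in the day 1 control (adjusted p = 0.00267), was 9.60 ± 0.13 at day 3 and reached 10.71 ± 0.05 at day 5, a rise of 1.11 ± 0.16 (SE) over day 3 (adjusted p = 1.95e-06). miR-15b went from 9.58 ± 0.27 to 10.47, 9.88 ± 0.34 and 10.87 ± 0.09 over the same groups, and its day 5 step was 0.98 ± 0.31 (adjusted p = 0.00948). Both day 5 steps depended on the scaling: when arrays were scaled to the 75th percentile of all miRNAs the step was 0.11 for miR-16 (adjusted p = 0.689) and -0.02 for miR-15b. miR-15a moved least, between 7.55 ± 0.14 in ESCs and 8.10 ± 0.02 in the day 5 control, and passed at no step.

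**Figure D1:**
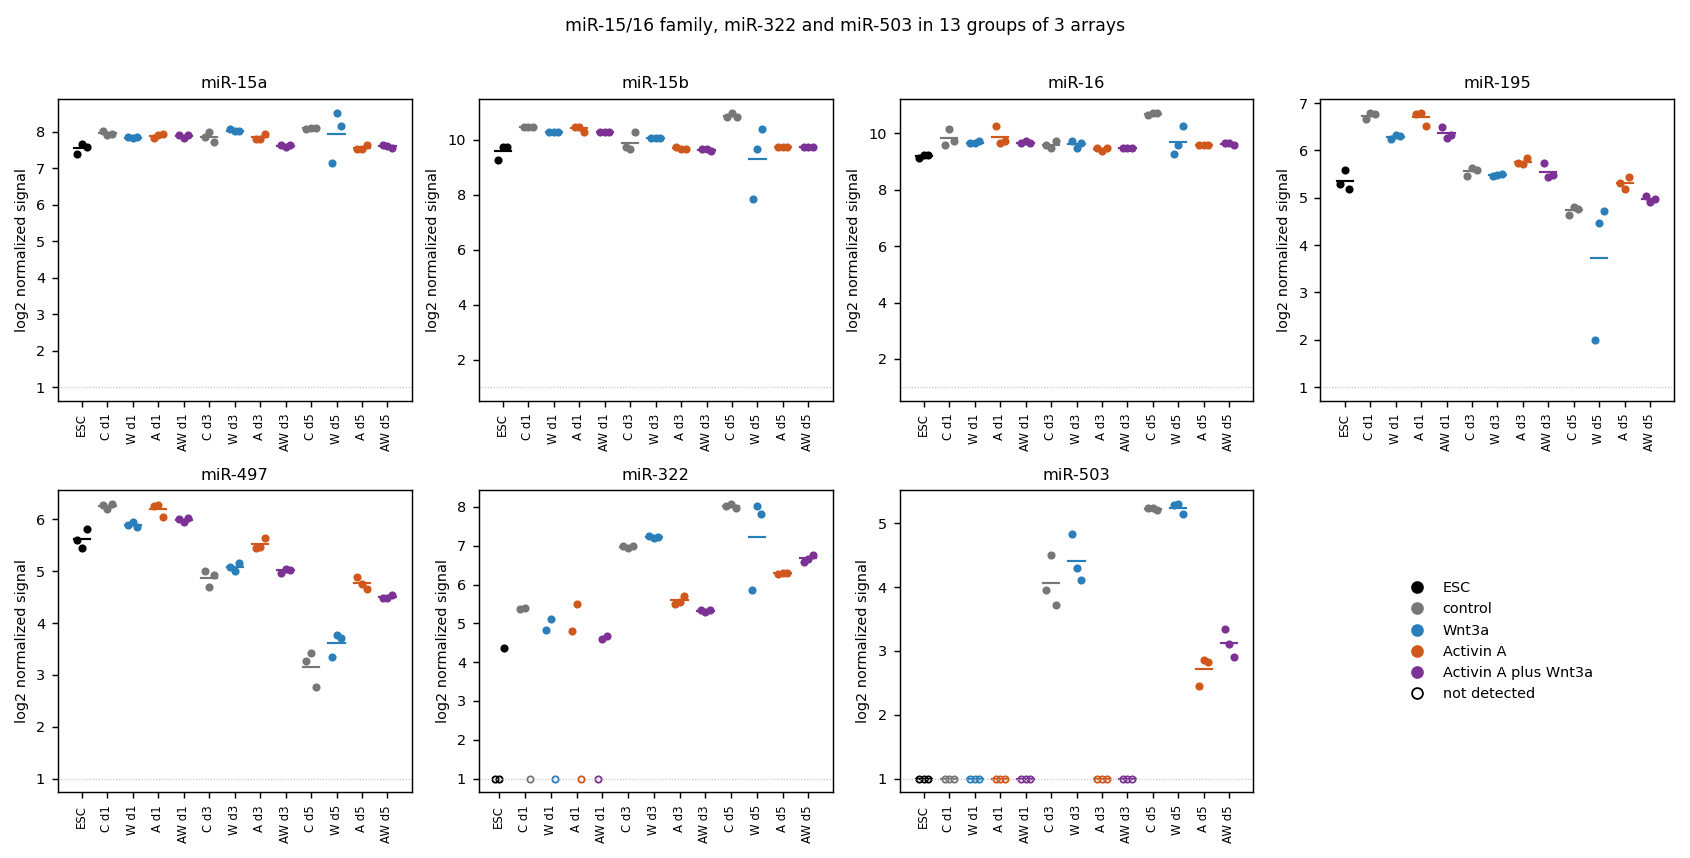
Level of each of the 7 members (log2 normalized signal, y axis) in the 13 groups (x axis: C control, W Wnt3a, A Activin A, AW both, d day); each point is 1 array, open points were not detected, and bars are means of groups where all or none of the 3 arrays detected the member. At days 3 and 5 miR-322 and miR-503 sit lower in both Activin A groups than in the control, while at day 5 miR-497 sits higher in them.

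With Activin A, miR-322 and miR-503 were lower than in the control at days 3 and 5, while miR-497 was higher. At day 3 miR-322 read 5.50, 5.55 and 5.72 with Activin A and 5.33, 5.29 and 5.33 with Activin A plus Wnt3a, against 6.995, 6.932 and 6.995 in the control and 7.26, 7.19 and 7.22 with Wnt3a. Neither Activin A group overlapped the other 2 groups. miR-322 fell by 1.38 ± 0.06 with Activin A against control (2.61-fold; adjusted p = 3.75e-08) and by 1.66 ± 0.06 with both factors (3.15-fold; adjusted p = 1.22e-08). These 2 comparisons share the control arrays. All 3 day 3 arrays with both factors lay on a slide with no other day 3 array, so in every day 3 comparison of both factors the treatment and the slide cannot be told apart. With both factors against Wnt3a alone it fell by 1.90 ± 0.06 (adjusted p = 6.73e-09).

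No array of the groups given Activin A, alone or with Wnt3a, detected miR-503 at day 3, while the control read 3.95, 4.51 and 3.71 and Wnt3a 4.84, 4.29 and 4.11. All 6 arrays without Activin A detected it and all 6 with it did not. Compared with the control its level was at least 3.53-fold lower under Activin A alone (adjusted p = 1.48e-06). Under both factors it was at least 4.81-fold lower (adjusted p = 1.32e-06). Each bound takes the mean, over the 3 arrays of the dimmer group, of the lowest level each detected. Against Wnt3a, both factors gave a level at least 6.16-fold lower (adjusted p = 6.88e-07).

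At day 5 miR-503 was detected again with Activin A, at 2.45, 2.86 and 2.83, and with both factors, at 3.343, 3.103 and 2.907, against 5.24, 5.24 and 5.21 in the control and 5.29, 5.30 and 5.14 with Wnt3a. The Activin A groups were again separate from the other 2 groups. miR-503 fell by 2.52 ± 0.13 with Activin A (5.72-fold; adjusted p = 4.07e-07) and by 2.11 ± 0.13 with both (adjusted p = 1.53e-06). At day 5 no slide held controls together with Wnt3a arrays or arrays with both factors. For every member, those comparisons with control can separate treatment from slide only through the Activin A arrays, which lay on both slides. Between days 3 and 5 the Activin A group became at least 1.39-fold higher (adjusted p = 4.82e-10), and the group with both factors was at least 2.51-fold higher (adjusted p = 3.37e-12).

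miR-322 at day 5 read 6.28, 6.30 and 6.30 with Activin A and 6.59, 6.66 and 6.76 with both factors, against 8.01, 8.07 and 7.98 in the control. The Wnt3a arrays read 5.85, 8.01 and 7.82, of which the first is the array that stood apart. miR-322 fell by 1.73 ± 0.47 with Activin A (3.32-fold; adjusted p = 0.0167) and by 1.35 ± 0.47 with both (adjusted p = 0.0405). Without that array the differences were the same and their errors 0.06, with adjusted p = 5.48e-08 and 2.62e-07. Within the slide that held controls and Activin A arrays at day 5 the difference was -1.74. The call for both factors was kept in 11 of 15 other settings and lost with the slide as a fixed block (adjusted p = 0.339), in 1 fit of all 39 arrays (adjusted p = 0.403), with a floor of 8 (adjusted p = 0.0519) and with no filter on low values (adjusted p = 0.0875). That for Activin A alone was lost in 1 fit of all 39 arrays (adjusted p = 0.28).

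miR-497 with Activin A read 5.46, 5.48 and 5.65 at day 3, all above the control's 5.00, 4.70 and 4.93, and it rose by 0.65 ± 0.09 (adjusted p = 0.000146). With both factors it read 4.97, 5.05 and 5.03 and differed by 0.14 ± 0.09 (adjusted p = 0.188). In the processed matrix, where the columns of these 2 groups are exchanged relative to the scanner labels, the rise with Activin A as named was 0.17 (adjusted p = 0.225). At day 5 both groups were above the control's 3.27, 3.42 and 2.77: miR-497 read 4.89, 4.75 and 4.66 with Activin A and 4.49, 4.49 and 4.55 with both. It rose by 1.61 ± 0.17 (3.06-fold; adjusted p = 5.57e-05) and 1.36 ± 0.17 (2.56-fold; adjusted p = 0.000138). With Wnt3a alone it read 3.34, 3.77 and 3.71, and both factors exceeded that by 0.90 ± 0.17 (adjusted p = 0.00229). Since the control fell to day 5, the difference was one of a smaller fall: from day 3 to day 5 miR-497 fell by 0.76 ± 0.12 with Activin A and by 0.51 ± 0.12 with both, and by 1.73 in the control.

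miR-195 at day 5 read 5.32, 5.19 and 5.43 with Activin A, above the control's 4.64, 4.81 and 4.77 on every array, and 5.03, 4.91 and 4.97 with both factors. The Wnt3a arrays read 1.99, 4.46 and 4.72, and the array that stood apart was the low one. The difference from control was 0.57 ± 0.59 with Activin A and did not pass (adjusted p = 0.529). Without that array it was 0.57 ± 0.09 and passed (adjusted p = 0.000573). At day 3 the difference was 0.20 ± 0.08 (adjusted p = 0.0614).

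For miR-16, miR-15b and miR-15a the day 3 differences with Activin A were -0.15 ± 0.08, -0.21 ± 0.13 and -0.00 ± 0.07, and none passed (adjusted p = 0.144, 0.222 and 1). At day 5 miR-16 read 9.57 on all 3 Activin A arrays and 9.65, 9.65 and 9.57 with both factors, against 10.64, 10.74 and 10.74 in the control. Neither group overlapped the control. It fell by 1.13 ± 0.20 (adjusted p = 0.00183) and 1.08 ± 0.20 (adjusted p = 0.00193). With Wnt3a alone miR-16 read 9.27, 9.57 and 10.27 and fell by 1.00 ± 0.20 (adjusted p = 0.0202), a call kept in 10 of 15 other settings and lost when any 1 of the 3 control arrays was left out. The fall with Activin A was 0.34 and did not pass when arrays were scaled to the 75th percentile of all miRNAs (adjusted p = 0.0856), and 0.56 when scaled over the miRNAs detected everywhere (adjusted p = 0.0541). The median of those miRNAs itself shifted by 0.14 between Activin A and control at day 5 under quantile normalization and by 0.24 under scaling over all miRNAs.

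miR-15b at day 5 read 9.74 on all 6 arrays with Activin A against 10.81, 10.98 and 10.81 in the control, and miR-15a 7.52, 7.52 and 7.65 with Activin A against 8.07, 8.11 and 8.11. The arrays of the control and of Activin A did not overlap for either. The differences of -1.13 ± 0.51 and -0.54 ± 0.28 did not pass (adjusted p = 0.116 and 0.176). The Wnt3a arrays, which share the estimate of the spread, read 7.85, 9.65 and 10.38 for miR-15b and 7.15, 8.52 and 8.15 for miR-15a. Without the array that stood apart both passed (adjusted p = 0.000326 and 0.000875), with the same differences. Over 15 other settings that kept that array, each passed in 2. The differences there ranged from -1.14 to -0.26 for miR-15b and from -0.58 to -0.34 for miR-15a.

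**Figure D2:**
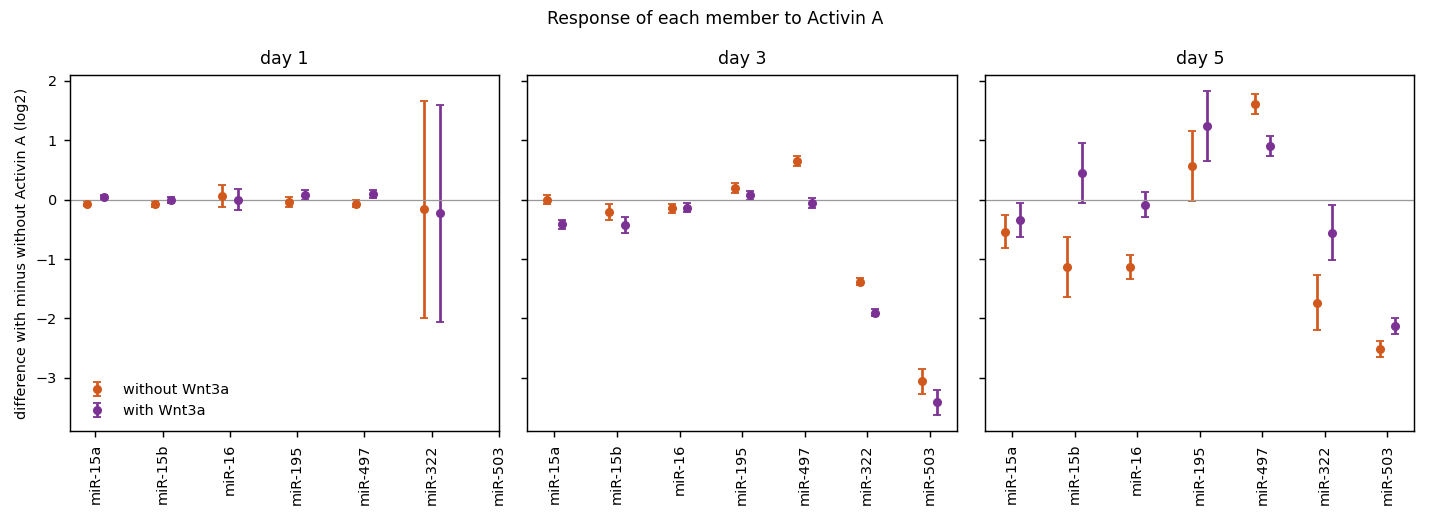
Difference with minus without Activin A (log2, y axis) for each member (x axis) at days 1, 3 and 5, without Wnt3a (Activin A against control) and with it (both factors against Wnt3a alone); bars are the SE of the limma fit with 3 arrays a group, and miR-503 was not tested at day 1. miR-322 lies between -1.90 and -1.38 at day 3 and miR-503 is the lowest member at days 3 and 5, where the day 3 values rest on the floor.

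At day 1 miR-503 did not pass the filter on low values and the other 6 members were tested. With Activin A against control 0 of 6 passed in limma, and 3.33% of the 240 miRNAs tested did; 0 of 6 had an unadjusted p under 0.05, and the methods' plain tests also gave 0. With Wnt3a against control 3 of 6 passed, against 20% of all, and with both factors 3 of 6, against 25%. These were miR-15b, miR-195 and miR-497, lower by at most 0.45 (miR-195, adjusted p = 0.00801). With both factors, leaving out 1 array gave 0 to 3 members: 0 without array 2 of both factors or array 3 of the control, and 1 without array 1 of the control. The controls and the Wnt3a groups lay on different slides at day 1. Those comparisons with control can separate Wnt3a from slide only through the Activin A arrays, which lay on both slides. Over 15 other settings, miR-15b, miR-195 and miR-497 passed in 10, 12 and 12 with Wnt3a. With both factors they passed in 8, 10 and 10.

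With Activin A against control at day 3, 3 of 7 members passed (miR-322 and miR-503 lower, miR-497 higher), against 56.4% of the 326 miRNAs tested, and with both factors 3 of 7 (miR-322, miR-503 and miR-15a, all lower), against 59.5%. At day 5 it was 4 of 7 (miR-322, miR-503 and miR-16 lower, miR-497 higher) in both comparisons, against 37.5% and 46.2% of 368. The median difference of the members was -1.13 with Activin A at day 5, against -0.03 over all miRNAs tested. At day 3 it was -0.15 against -0.04. The day 5 median is the value of miR-15b, which did not pass. Over 15 other settings the difference of miR-15b ranged from -1.14 to -0.26, so the size of this median depends on the processing. Without the Wnt3a array that stood apart 7 of 7 passed at day 5 in both comparisons, against 61.7% and 68.6% of 363. With Wnt3a alone against control 1 of 7 passed at day 3 (miR-322, higher by 0.25; adjusted p = 0.00871), against 35% of all, and 1 of 7 at day 5 (miR-16), against 8.15%. Leaving out 1 array gave 1 to 3 members at day 3, with 3 without array 2 of the control and 2 without array 3, and 0 to 3 at day 5. The 3 at day 5 came without the Wnt3a array that stood apart, against 35.8% of all: miR-15b fell by 0.85 (adjusted p = 0.00774), miR-16 fell by 0.78 (adjusted p = 0.00877) and miR-497 rose by 0.59 (adjusted p = 0.0279).

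The average of the Activin A effects with and without Wnt3a used all 12 arrays of a day. At day 1 it passed in limma for 0 of 6 members (0 at an unadjusted p under 0.05), against 7.08% of all miRNAs tested. At day 3 it passed for 6 of 7, against 60.7%: miR-322 fell by 1.64 ± 0.04 (adjusted p = 4.63e-10), miR-503 was lower (adjusted p = 4.52e-08), miR-497 rose by 0.29 ± 0.06 (adjusted p = 0.00204), and miR-15b, miR-15a and miR-16 fell by 0.31, 0.21 and 0.14. miR-195 differed by 0.14 ± 0.06 (adjusted p = 0.0684). For miR-15a the fall came only from both factors against Wnt3a (means 7.62 and 8.03), since Activin A and control each had a mean of 7.85. At day 3 the arrays with both factors lay on a slide of their own, and the average was not run in other settings. Before normalization the probes of miR-15b, miR-15a and miR-16 read higher with Activin A than in the control at day 3. At day 5 the average passed for 4 of 7, against 51.1%: miR-503 fell by 2.32 ± 0.09, miR-322 by 1.14 ± 0.33 and miR-16 by 0.61 ± 0.14, while miR-497 rose by 1.26 ± 0.12. Without the Wnt3a array that stood apart it passed for 7 of 7, against 68%.

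Whether Wnt3a changed the Activin A effect was tested as an interaction. At day 3 it passed for 3 of 7 members, against 22.7% of all miRNAs tested, and at day 5 in limma for 0 of 7, against 3.26%; miR-16 and miR-497 had an unadjusted p under 0.05 there. Without the Wnt3a array that stood apart, a fit chosen after its values were seen, the day 5 interaction passed for 4 of 7, against 16%: it was 0.85 for miR-15b, 0.83 for miR-16, 0.49 for miR-322 and -0.84 for miR-497 (adjusted p = 0.046, 0.0407, 0.011 and 0.0407). Both factors against Activin A alone gave 0 of 7 at day 5 in limma, against 4.89% of all; 1 of 7 (miR-503) had an unadjusted p under 0.05, and the methods' plain tests gave 1. Without that array miR-322 was higher by 0.38 ± 0.06 and miR-195 lower by 0.34 ± 0.09 (adjusted p = 0.00277 and 0.0292), against 19.6%. Both factors against Wnt3a alone passed for 2 of 7 at day 5 (miR-497 and miR-503), against 41% of all. Without that array 5 of 7 passed, against 55.1%. miR-322, miR-15a and miR-195 then differed by -1.24, -0.74 and 0.38 (adjusted p = 1.10e-06, 0.000315 and 0.0107, limma). On all arrays these differences were -0.56, -0.34 and 1.25 and did not pass.

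Markers of cell types also differed between the groups. At day 5 the summed level of the 6 ESC miRNAs of the miR-290 cluster was 12.94 to 13.06 in the control and 14.68 to 14.84 with Activin A, and 5 of 6 were higher. The endoderm or epithelial list (miR-375, miR-141 and the miR-200 family) was higher in 6 of 6 members at both days, with a summed level of 6.89 to 6.90 in the day 5 control and 10.35 to 10.37 with Activin A. The neural list was lower in 4 of 4 at day 5, from 9.55 to 9.94 in the control to 6.30 to 6.47. At day 3 with Activin A, 2 of these 4 were higher and 2 lower. The epiblast list (miR-302a to miR-302d and miR-367) was higher in 4 of 5 with Activin A at days 3 and 5, and 0 were lower. The fibroblast list was at 10.74 to 10.84 in the day 5 control and 10.41 to 10.51 with Activin A, and 1 of 8 was higher and 0 lower. With both factors it was at 10.59 to 10.89, and of the 7 tested 4 were higher and 0 lower, with a median difference of 0.80. The part of these shifts in the levels of the family was not tested.

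Members were compared by their response to Activin A, never by their levels, since each has its own probes. For each pair the difference of the 2 members was taken on every array and tested over the 12 arrays of a day by a two-sided exact permutation test within the Wnt3a strata, with 400 assignments and a smallest possible p of 0.005. Over 57 pairs of all days, 0 of 15 passed at day 1 (0 at an unadjusted p under 0.05), 17 of 21 at day 3 and 15 of 21 at day 5 after Benjamini-Hochberg adjustment.

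The chromosome 11 members, the X-linked members and the trio of miR-15a, miR-15b and miR-16 were set apart by most pairs. The trio held 0 passing pairs among themselves at either day, on averages over Wnt3a absent and present. Such averages can cancel: miR-15a minus miR-15b at day 5 was 0.59 without Wnt3a and -0.79 with it (-0.46 without the array that stood apart). At day 3 it was 0.21 without Wnt3a and 0.004 with it. Without the Wnt3a array that stood apart 18 of 21 pairs passed at day 5. miR-497 responded above miR-322 by 1.94 ± 0.05 at day 3 and 2.40 ± 0.29 at day 5, and miR-195 above miR-322 by 1.78 ± 0.06 and 2.05 ± 0.12 (SE, n = 12 arrays; adjusted p = 0.0102 for each, exact permutation test, from the smallest p the test can give). miR-16 responded above miR-322 by 1.503 ± 0.052 at day 3 (adjusted p = 0.0102, exact permutation test) and by 0.54 ± 0.27 at day 5, which did not pass (adjusted p = 0.0754, exact permutation test). Without the Wnt3a array that stood apart the day 5 difference was 0.77 ± 0.23 and passed (adjusted p = 0.00891, exact permutation test). The same held for miR-15b minus miR-497 at day 5, with -1.60 ± 0.33 on all arrays (adjusted p = 0.0605, exact permutation test) and -1.90 ± 0.22 without that array (adjusted p = 0.00891, exact permutation test). miR-16 lay below miR-497 by 0.44 ± 0.06 at day 3 and by 1.87 ± 0.16 at day 5 (adjusted p = 0.0276 and 0.0102, exact permutation test).

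Within clusters, miR-195 and miR-497 differed by -0.16 ± 0.09 at day 3 and -0.35 ± 0.39 at day 5 (adjusted p = 0.42 and 0.702, exact permutation test). Without the Wnt3a array that stood apart the day 5 difference was -0.72 ± 0.14 and passed (adjusted p = 0.00891, exact permutation test). miR-15b and miR-16 differed by -0.17 ± 0.07 and 0.26 ± 0.25 (adjusted p = 0.0896 and 0.577, exact permutation test), and miR-15a and miR-16 by -0.07 ± 0.09 and 0.17 ± 0.18 (adjusted p = 0.762 and 0.702, exact permutation test). A p above the threshold does not show that partners act alike, since each difference averages over both Wnt3a states. Without and with Wnt3a, miR-195 minus miR-497 was -0.45 and 0.13 at day 3, and -1.04 and 0.34 at day 5. The last value was -0.39 without the array that stood apart. miR-15a minus miR-16 was 0.15 and -0.28 at day 3, and 0.60 and -0.26 at day 5 (-0.44 without that array). miR-15b minus miR-16 was -0.06 and -0.28 at day 3, and 0.0004 and 0.53 at day 5 (0.02 without that array). miR-503 responded below miR-322 by 1.18 ± 0.37 at day 5 (adjusted p = 0.0102, exact permutation test). At day 3, where miR-503 was not detected with Activin A, the sign of that pair depended on the floor (-0.41 with a floor of 8), so no order is given.

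**Figure D3:**
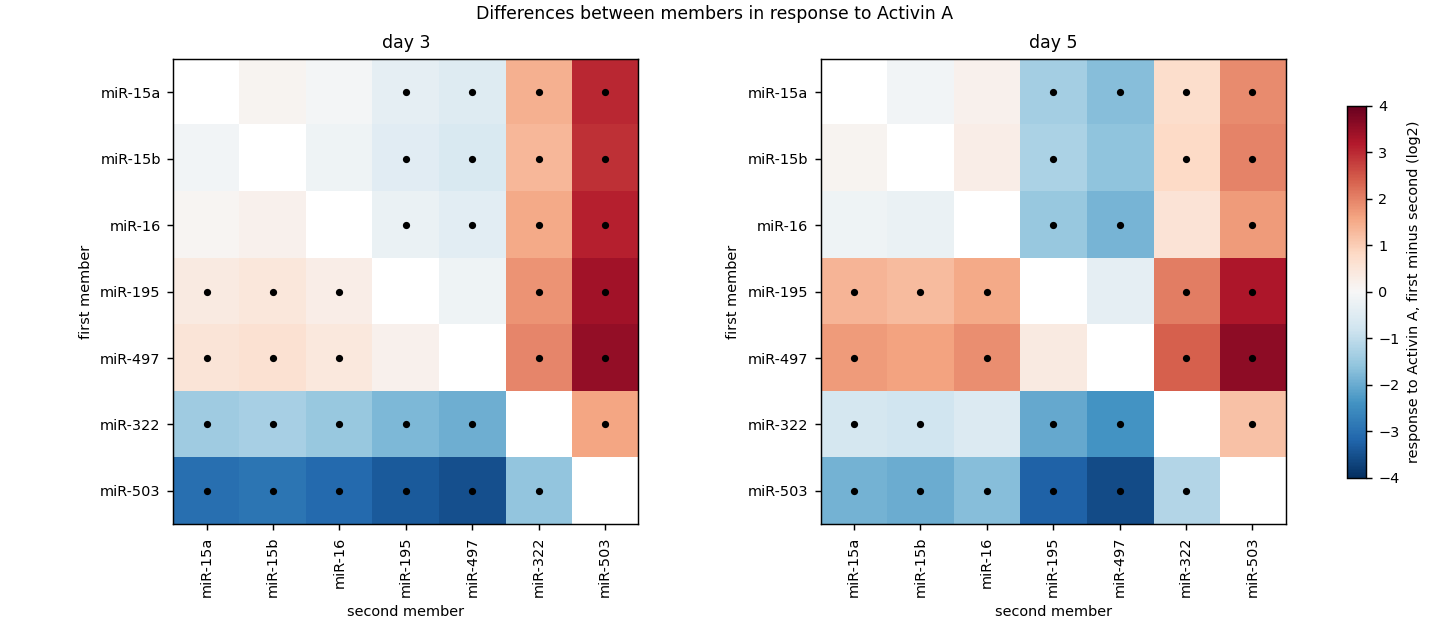
Response to Activin A of the first member (rows) minus that of the second (columns), log2, averaged over Wnt3a absent and present, at days 3 and 5; dots mark pairs with an adjusted p under 0.05 in the exact permutation test over 12 arrays. Most dots lie between the chromosome 11 members, the X-linked members and the other 3; miR-15a, miR-15b and miR-16 hold none among themselves, and values for miR-503 at day 3 rest on the floor.

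Each member is read by 2 probes, and before any normalization both probes of a member gave 1 direction with Activin A against control at each of days 3 and 5. With both factors at day 3 they disagreed in sign for miR-15b (-0.164 and 0.004) and miR-16 (-0.212 and 0.056). The probes of miR-322 read -1.41 to -1.27 on day 3 and -1.45 to -1.41 on day 5, and those of miR-497 0.61 to 0.62 and 1.17 to 1.33. For miR-503 they were -3.01 to -1.48 on day 3 and -1.67 to -1.39 on day 5. For miR-16 and miR-15b the day 5 values were -0.14 to -0.12 and -0.05 to -0.03, far smaller than after quantile normalization, and on day 3 the probes read 0.02 to 0.07 and 0.14 to 0.17, opposite in sign to the normalized differences.

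Across the 13 group means, miR-195 and miR-497 had r = 0.90, miR-322 and miR-503 r = 0.87, miR-15b and miR-16 r = 0.77 and miR-15a and miR-16 r = 0.68, whereas miR-497 had r = -0.83 with miR-322 and r = -0.86 with miR-503. These are descriptions over groups that share the day and the normalization. Among 359 miRNAs compared, those most like miR-322 were miR-135a (r = 0.96), miR-103 (r = 0.96) and miR-652 (r = 0.95). For miR-195 they were miR-183, miR-155 and miR-34c (r = 0.95, 0.90 and 0.88), for miR-15b miR-350, miR-151-5p and miR-140 (r = 0.94, 0.86 and 0.76), and for miR-16 miR-25, miR-551b and miR-505 (r = 0.91, 0.87 and 0.87).

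Ordered by level, miR-322 was highest in the day 5 control (8.02) and lowest in ESCs, and miR-503 highest with Wnt3a at day 5 (5.24) and in the day 5 control (5.23), which overlapped. For miR-322 each of Activin A plus Wnt3a at day 5, Activin A at day 5 and Activin A at day 3 was separate from the next group in that order, while ESC and the day 1 groups overlapped. miR-195 and miR-497 were both highest in the day 1 control (6.74 and 6.26), which overlapped Activin A at day 1. miR-15b and miR-16 were highest in the day 5 control, separate from the next group, and miR-15a was highest there too (8.10) but overlapped Wnt3a at day 3.

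Next to miR-322 and miR-503 on the same strand of the X chromosome lie miR-351, 688 bases from miR-503, and then miR-542 and miR-450. At day 3 miR-351 was detected on 2 of 3 control arrays and on 3 of 3 Wnt3a arrays, and on 0 of 6 with Activin A. Its level in the control lay below the mean of the lowest levels that the arrays with Activin A alone detected, so no fold or direction is given. At day 5 all 3 arrays with Activin A alone detected miR-351 but sat at the floor. Its difference from control, -1.26 ± 0.49, is set by that floor and did not pass (adjusted p = 0.0751, limma). Farther along, miR-542-3p was not detected in the control at day 3, and Activin A arrays read at least 2.76-fold higher (adjusted p = 0.00396). With both factors it was detected on 1 of 3 arrays, differed from control by 0.75 (adjusted p = 0.331) and fell by 2.12 against Activin A alone (adjusted p = 0.0361). With Activin A miR-450a-5p rose by 0.54 ± 0.12 (adjusted p = 0.00343). At day 5 neither passed. Of 7 neighbours, miR-542-5p, miR-450b-5p and miR-450b-3p did not pass in either comparison at day 5, and miR-450a-3p was detected on 1 array only.

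**Figure D4:**
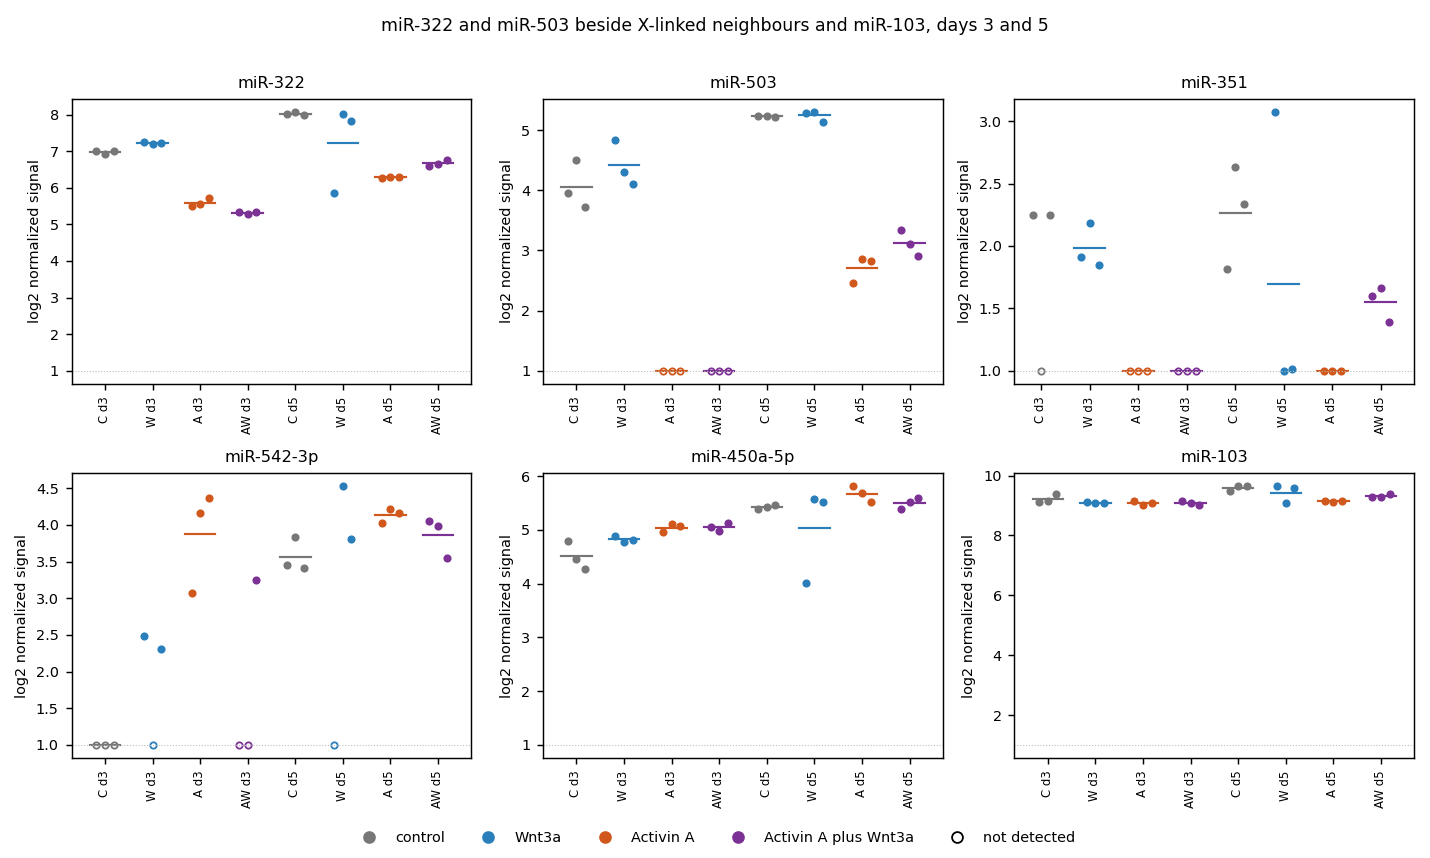
Levels (log2 normalized signal, y axis) of miR-322, miR-503, 3 X-linked neighbours and miR-103 at days 3 and 5 (x axis: C control, W Wnt3a, A Activin A, AW both, d day); each point is 1 array, open points were not detected, and bars are means of groups where all or none of the 3 arrays detected the miRNA. At day 3 miR-351 is detected in no Activin A array while miR-450a-5p lies higher with Activin A than in the control.

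miR-103 and miR-107 carry the family's letters 1 base nearer the 5′ end, and are printed with those letters, bases 1 to 7, in capitals.

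miR-103: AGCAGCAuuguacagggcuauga
miR-107: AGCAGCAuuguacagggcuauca

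At day 3 miR-103 differed from control by -0.15 ± 0.08 with Activin A (adjusted p = 0.129) and miR-107 by 0.03 ± 0.07 (adjusted p = 0.799). At day 5 they fell by 0.44 ± 0.13 (adjusted p = 0.0285) and 0.37 ± 0.09 (adjusted p = 0.013).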

How the data were processed

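Cy3-labelled RNA was hybridised to Agilent 1-colour mouse miRNA arrays, 1 array per sample. The scanner files deposited by the authors hold intensity values. Their headers name Feature Extraction 10.7.3.1, whose background-subtracted probe signals were added up to 1 total per miRNA for 650 miRNAs, with 0.1 standing for not detected. The deposited detection flags, other values of the same files, were used for filtering. The submitters' processing notes name version 9.5.3.1. The authors also deposited a matrix of quantile normalized log2 values, used only as an alternative because its columns of both Activin A treatments are exchanged. Local background was 35 to 42 per array, and the number of arrays limits the precision.

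Quantile normalization was run on the total signals of 39 arrays, then values under 2 were set to 2 and log2 was taken (limma 3.58.1 in R 4.3.3, statmod 1.5.0 for random blocks). Tests were limited to miRNAs that 2 or 3 arrays of some group in the fit had detected. The 12 arrays of each day were fitted apart, and changes between days in 1 fit of 39 arrays, with empirical Bayes tests and Benjamini-Hochberg adjustment over all miRNAs tested; a miRNA passed at an adjusted p under 0.05. Pairs of members were compared by exact permutation (Python 3.11.15, NumPy 2.4.6, pandas 2.3.3). A fold against a group undetected on all 3 arrays is a bound. Sequences came from RefSeq tables and were read by name; each of the 7 members matched 1 mature sequence, the names miR-195 and miR-497 being the older ones of miR-195a and miR-497a.

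Alternatives were scaling to the 75th percentile, other normalizations, floors and filters, normexp background correction with an offset of 50, the matrix, slide and replicate number as blocks, plain tests as in the methods, and each array left out in turn. Fits without array 1 of Wnt3a at day 5 were added after seeing the data. Fits were tested on simulated data. The members, the marker lists and the other miRNAs named (opposite strands, X-linked neighbours, miR-103 and miR-107, and the 3 miRNAs most like each of miR-322, miR-195, miR-15b and miR-16) followed a rule set with the plan, and were chosen with earlier results of these data known.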

Additional observations from a re-analysis of the deposited data

Results flagged for a closer look

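At day 3 the effect of Activin A differed with and without Wnt3a for 3 members, by the test of the interaction. The effect with Wnt3a minus that without was -0.42 for miR-15a (adjusted p = 0.0193), -0.71 for miR-497 (adjusted p = 0.00392) and -0.52 for miR-322 (adjusted p = 0.00233), with 3 arrays in each of 4 groups. All arrays with both factors lay on a slide of their own among those of day 3, so the slide and the interaction cannot be told apart. The same arrays are those whose columns, relative to the scanner labels, are exchanged with Activin A in the processed matrix.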

How the results depend on the processing

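Over all comparisons, 47 numbers of members past the test moved by over 1.5 times in other settings and 172 did not. Those listed here are of Activin A alone and both factors against control at days 3 and 5. The control steps from day 1 to day 3 and from day 3 to day 5 are listed too. With both factors against control at day 3 (3 members), it was 1 in 1 fit of all 39 arrays, where the spread of miR-322 includes early arrays that did not detect it, and 5 under 75th percentile scaling, taken over all miRNAs and taken over miRNAs every array detected (5 in each). With Activin A against control at day 3 (3) it was 5 under the latter scaling and 5 with normexp correction. At day 5, Activin A alone and both factors (4 each) gave 7 and 7 in plain tests, and both factors 2 with the slide as a fixed block. From day 1 to day 3 of the control (4) it was 7 under scaling over all miRNAs and 2 among miRNAs detected on all arrays of the fit, and from day 3 to day 5 (4) it was 2 under scaling over all miRNAs. The cause was not tested where none is given. Leaving out 1 array gave 2 to 3 members for both factors at day 3, 3 to 4 for Activin A at day 3, 3 to 7 for both factors and 4 to 7 for Activin A at day 5 (7 without array 1 of Wnt3a in both, a fit also added after seeing the data), 3 to 4 from day 1 to day 3 and 4 to 4 from day 3 to day 5 of the control.

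Directions changed under scaling over all miRNAs for miR-15b from day 3 to day 5 of the control (-0.017), for miR-15b and miR-16 with Wnt3a at day 3 (-0.24 and -0.22) and for miR-16 with both factors against Activin A at day 3 (-0.28). With the matrix columns as named, both factors against Activin A turned to 0.26 for miR-15a, 0.30 for miR-322 and 0.71 for miR-497 at day 3 and to 0.34 for miR-195 at day 1. A floor of 8 turned miR-322 against miR-503 at day 3 to -0.41. For miR-503, the direction and the call with Activin A against control were kept at both days in every setting run, and its size at day 5 ranged from -3.01 to -0.31, the last with normexp correction. For miR-322 at day 3 the size ranged from -1.76 to -0.55 and the call was lost in 1 fit of all arrays (adjusted p = 0.483).

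Replicate numbers did not pair the arrays: of 54 correlations of same-numbered deviations, 19 were over 0.1 (median -0.03). With the replicate number as a block, miR-322 with Activin A at day 3 stayed at -1.38 (adjusted p = 9.92e-07) and miR-503 at day 5 at -2.52 (adjusted p = 1.32e-05). Both factors against Activin A no longer passed for miR-15a at day 3 (-0.23) and miR-195 at day 1 (-0.34), and no other value changed its call.

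Low signals limit the early arrays: averaged over the day 1 control arrays, the lowest detected level was above that of miR-503 in the day 3 control. Levels of different members were not compared, and each group holds 3 arrays.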

Other observations

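The opposite strand of miR-322 (miR-322*) was detected on all 3 control arrays at day 5, at 1.66, 2.13 and 2.25, and on 0 of 6 arrays with Activin A. It was at least 2.02-fold lower with Activin A alone (adjusted p = 0.0025, limma) and at least 1.64-fold lower with both factors (adjusted p = 0.00214). With Wnt3a alone it was detected on 3 of 3 arrays, at 1.66, 1 and 1, and fell by 0.79 on the log2 scale against the control (adjusted p = 0.0397). Both factors against Wnt3a alone differed by -0.22 (adjusted p = 0.41). The opposite strands of miR-15a, miR-16 and miR-503 were detected on 0 of 39 arrays. That of miR-15b was detected on 2 of 3 control arrays at day 3 and 3 of 3 at day 5, and differed from control with Activin A by 0.79 ± 0.42 at day 3 and -0.30 ± 0.31 at day 5 (adjusted p = 0.144 and 0.534).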
